A study of Mus musculus with 8 samples.

Results

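The 10 genes studied here mark the fibroblasts resident in the outer coat of blood vessels, the adventitia, and were followed in cultured heart fibroblasts. They were Dpp4, Pi16, Ly6a, Cd34, Gsn, Dpt, Scara5, Clec3b, Dpep1 and Smoc2. The members were chosen by gene symbol as known markers, with no threshold on a measured value but with earlier results of these data known. All 10 had a row among the 22274 genes of the count table. RNA was sequenced from primary murine cardiac fibroblasts, heart cells that lay down collagen, in culture. All 8 libraries came from cells treated with TGF-β, a cytokine that turns fibroblasts into contractile myofibroblasts, so no resting cells were measured. In 4 libraries, labelled GFP, the cells carried the control virus that the study calls an empty vector, and in the other 4, labelled OEIRF7, they carried a virus for IRF7, a transcription factor of the interferon response. Mice of the wider work had a C57BL/6 J background, but the strain, age and sex of the mice behind these cultures and the number of animals per culture were not given in the sources used here. Endogenous mouse Irf7 lay at 118 ± 24.0 CPM (read counts scaled to library size; SD, n = 4) in the GFP libraries and at 15.2 ± 0.822 CPM in the libraries labelled OEIRF7. The study's reagent list names a human gene in the vector, whose reads need not map to the mouse gene, so this fall does not check the labels, which were used as given. Total counts per library lay between 24888589 and 27095611 for GFP and between 24454801 and 28658826 for OEIRF7. The question was whether the resident-state markers differed between the groups in cells that had received TGF-β.

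Adventitial fibroblasts sit around vessels and between tissue layers, and cells of this kind are found in many organs. They carry surface proteins such as Dpp4, Ly6a and Cd34, which are also used to isolate progenitor-like stromal cells, and they secrete matrix and matrix-binding proteins. When fibroblasts become myofibroblasts they take up contractile and matrix genes, and markers of the resident state are commonly lower in them. Endothelial and haematopoietic cells also carry Cd34 and Ly6a, so these are not particular to fibroblasts.

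Promoter sequences, taken from RefSeq on GRCm38.p6, were at hand for 6 of the 10 members. The 250 bases before the annotated start are given for 3 of them, in the direction of transcription. Dpp4 and Cd34 showed the largest falls among the members and Dpep1 the largest rise. The window of Dpp4 was chr2:62412232-62412481 on the minus strand, that of Cd34 was chr1:194938571-194938820 on the plus strand and that of Dpep1 was chr8:123185985-123186234 on the plus strand. Capitals mark the GAAANNGAAA element in Dpp4, the core that interferon regulatory factors recognise, and the CAGAC box in Dpep1, which SMAD proteins of the TGF-β pathway recognise.
Dpp4: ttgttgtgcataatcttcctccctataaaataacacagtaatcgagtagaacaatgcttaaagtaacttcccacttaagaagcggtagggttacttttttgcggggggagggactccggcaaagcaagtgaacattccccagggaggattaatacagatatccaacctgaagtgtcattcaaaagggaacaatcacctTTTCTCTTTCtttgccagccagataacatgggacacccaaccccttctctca
Cd34: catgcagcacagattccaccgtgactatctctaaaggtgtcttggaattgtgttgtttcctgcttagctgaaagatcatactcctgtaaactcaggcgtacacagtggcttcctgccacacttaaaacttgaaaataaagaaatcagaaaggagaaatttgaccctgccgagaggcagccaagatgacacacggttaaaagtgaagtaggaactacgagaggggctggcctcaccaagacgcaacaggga
Dpep1: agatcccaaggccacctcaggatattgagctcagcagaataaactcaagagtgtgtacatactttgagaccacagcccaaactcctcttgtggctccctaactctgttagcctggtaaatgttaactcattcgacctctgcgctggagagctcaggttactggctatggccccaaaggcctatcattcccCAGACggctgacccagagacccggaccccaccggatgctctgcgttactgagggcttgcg

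Both strands of each window were searched for 3 motifs, and none of the marked matches overlapped another. The GAAANNGAAA element stood in 978 of 32851 RefSeq promoter windows (2.98%). Among the 8 windows of the 6 members it was found in Dpp4 alone, as its reverse complement beginning 52 bases before the start. The AP-1 motif TGANTCA was in 6.75% of all windows and in none of the members. CAGAC was in 42.2% of all windows and, among the members, in Dpep1, Pi16 and 2 of the 3 windows of Gsn. No binding was measured in the files used here, and a match of letters is not a binding site.

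The 10 markers spanned a wide range of levels. On the FPKM scale, scaled by gene length and depth so that genes can be compared, the mean over all 8 libraries was 225 for Gsn, 95.1 for Dpt and 67.1 for Smoc2. Cd34 followed at 27.8 FPKM, Ly6a at 22.4 and Dpep1 at 15.7. Dpp4 averaged 0.781 FPKM, Pi16 0.34, Clec3b 0.113 and Scara5 0.0138. Set against the 13533 genes that passed the filter on low counts, Gsn stood above 97.9% of them and Dpep1 above 65.9%. Dpp4 stood above only 13.5% and Pi16 above 6.47%. In the GFP libraries no neighbours in this order overlapped. In the libraries labelled OEIRF7, Cd34 (19.2 to 27.8 FPKM) overlapped Ly6a (19.8 to 23.8), and Dpp4 (0.35 to 0.62) overlapped Pi16 (0.24 to 0.49), so these pairs were not separated beyond the spread of the libraries. All 10 markers together took 0.102% to 0.108% of counts in the GFP libraries and 0.0948% to 0.105% in the libraries labelled OEIRF7. Gsn alone made up 46.2% to 53.7% of their summed FPKM.

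**Figure D1:**
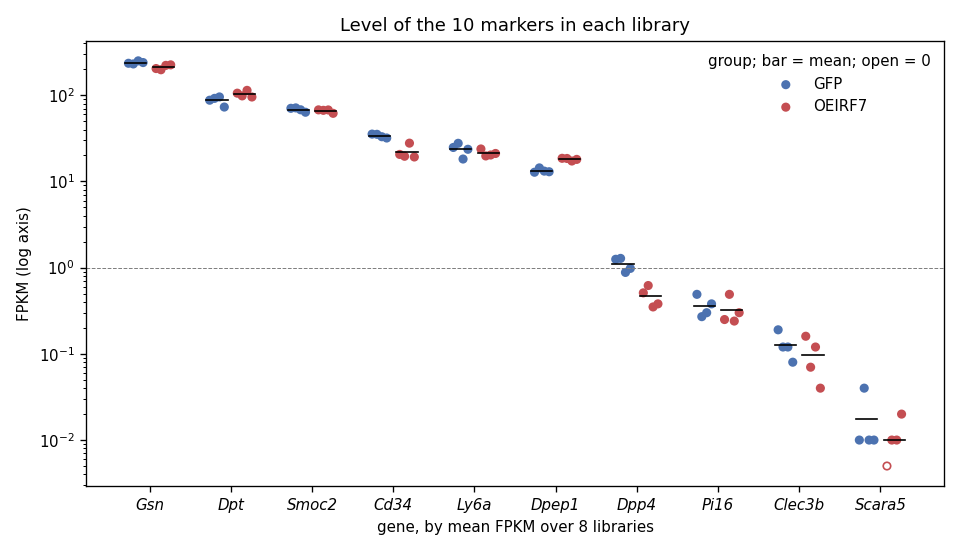
Level of each of the 10 markers in every library, in FPKM on a log axis, ordered by the mean over 8 libraries; each point is a library (blue, GFP; red, labelled OEIRF7), the bar is the group mean and the open point stands for a listed 0. Gsn, Dpt and Smoc2 lie highest, Dpp4 straddles the dashed line at 1 FPKM, and Clec3b and Scara5 lie below 0.2 FPKM in every library.

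Scara5, a receptor for ferritin, and Clec3b, the plasminogen-binding protein tetranectin, were close to the limit of detection. Scara5 had 1, 4, 1 and 1 reads in the GFP libraries and 0, 1, 1 and 2 in the libraries labelled OEIRF7, at or under 3 reads in 7 of 8 libraries. Clec3b had 5, 3, 3 and 2 reads against 4, 2, 3 and 1, at or under 3 reads in 6 of 8 libraries. A count of 0 allows up to 3 reads, which was 0.118 CPM in the library of replicate 1 labelled OEIRF7, for counting error only. Both genes failed the filter, and a difference between the groups was not detectable at this depth. With any gene of at least 1 read kept, the edgeR log2 fold change was -0.77 for Scara5 (SE 1.04, adjusted p = 0.57) and -0.39 for Clec3b (SE 0.757, adjusted p = 0.70).

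The other 8 markers were tested by edgeR's quasi-likelihood test on the counts, with adjustment over all 13533 genes. At an adjusted p under 0.05, 2 of the 8 were higher in the libraries labelled OEIRF7 (Dpep1 and Dpt), 3 were lower (Dpp4, Cd34 and Gsn) and 3 were not called (Pi16, Ly6a and Smoc2). Over all tested genes 29.0% were called higher and 29.9% lower, so the shares among the markers lay near the background. Past a log2 fold change of 1, 1 marker fell (Dpp4) and 0 rose, where 3.89% of all tested genes fell and 4.66% rose that far. The groups did not overlap in CPM for 4 of the 8 (Dpp4, Cd34, Gsn and Dpep1), where 53.8% of all tested genes did not. The median log2 fold change of the 8 markers was -0.13, and that of all tested genes was 0.00. In bulk RNA, fewer cells of a type and less RNA per cell cannot be told apart.

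**Figure D2:**
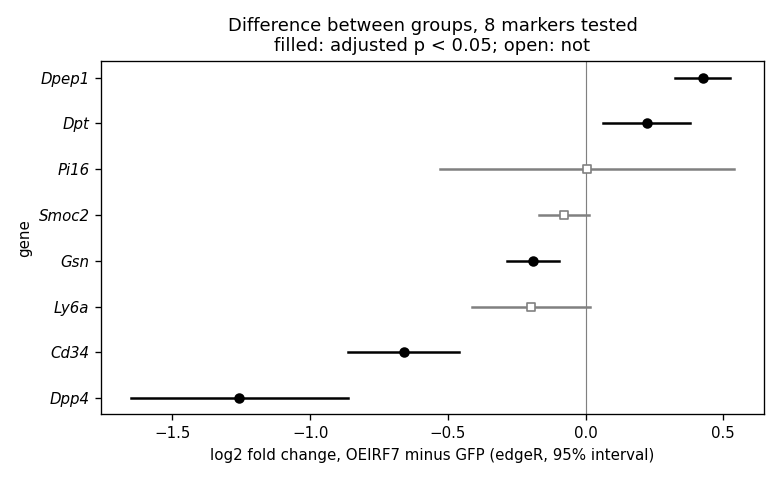
Log2 fold change of the 8 tested markers, libraries labelled OEIRF7 minus GFP, from edgeR with its 95% interval; filled circles have an adjusted p under 0.05 and open squares do not. Dpp4 (-1.26) and Cd34 (-0.66) lie farthest below 0 and Dpep1 (0.42) farthest above it, and the interval of Pi16 is the widest.

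Among the surface markers, Dpp4, a membrane-bound serine exopeptidase that trims peptides and chemokines, showed the largest difference. It is encoded on chr2:62330073-62412231, minus strand. It had 179, 170, 115 and 137 reads in the GFP libraries and 68, 94, 47 and 49 in those labelled OEIRF7. Every library labelled OEIRF7 lay below every GFP library. The mean was 5.84 ± 1.07 CPM against 2.43 ± 0.642 CPM (SD, n = 4 each). Dpp4 fell by 1.26 on the log2 scale (SE 0.183, 95% interval -1.65 to -0.86), to 0.42 times its GFP level, with an edgeR adjusted p of 3.3e-05. The exact two-sided permutation test gave p = 0.029, the smallest that 4 against 4 libraries allow. Of all tested genes, 5.52% had a log2 fold change of at least this size. Leaving out each library in turn gave log2 fold changes from -1.44 to -1.15. On log2(FPKM + 1), a scale that compresses genes near 1 FPKM, limma gave -0.52.

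Cd34, a sialomucin of progenitor, stromal and vascular cells, is encoded on chr1:194938819-194961279, plus strand. Its levels were 88.9, 87.9, 82.2 and 80.3 CPM in the GFP libraries and 50.7, 48.0, 69.0 and 47.1 CPM in those labelled OEIRF7. The groups did not overlap, although replicate 3 labelled OEIRF7 stood above the other 3 of its group. The spread was 4.98% of the mean in the GFP libraries and 19.2% in those labelled OEIRF7. Cd34 fell by 0.66 on the log2 scale (SE 0.0939, 95% interval -0.86 to -0.46, edgeR adjusted p = 2.6e-05; exact permutation p = 0.029). Without replicate 3 labelled OEIRF7 the log2 fold change was -0.80.

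Ly6a, the stem cell antigen Sca-1, is a lipid-anchored surface protein encoded on chr15:74994877-74998031, minus strand. Its counts were 606, 616, 412 and 570 in the GFP libraries and 537, 509, 454 and 458 in the libraries labelled OEIRF7. The groups overlapped because replicate 3 of GFP had the lowest level of all 8 libraries. The log2 fold change was -0.20 (SE 0.0996, 95% interval -0.41 to 0.01, edgeR adjusted p = 0.10; exact permutation p = 0.26). Without GFP replicate 3 it was -0.30 and passed the test (edgeR adjusted p = 0.00379), so 1 library decided the call. Without GFP replicate 2 it was -0.13 (edgeR adjusted p = 0.282). How the counting shared reads between Ly6a and near-identical Ly6 genes was not given in the sources used here.

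Dpep1, a membrane dipeptidase that splits glutathione-derived peptides and leukotrienes, went the other way. It is encoded on chr8:123186242-123201812, plus strand. It was measured at 28.9, 31.5, 29.7 and 29.3 CPM in the GFP libraries and at 40.9, 40.8, 38.5 and 39.9 CPM in the libraries labelled OEIRF7. The 2 groups were narrow and did not overlap. Dpep1 rose by 0.42 on the log2 scale (SE 0.0466, 95% interval 0.33 to 0.52, edgeR adjusted p = 1.9e-06; exact permutation p = 0.029), or 1.34-fold. A difference of at least this size was seen in 30.7% of tested genes.

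**Figure D3:**
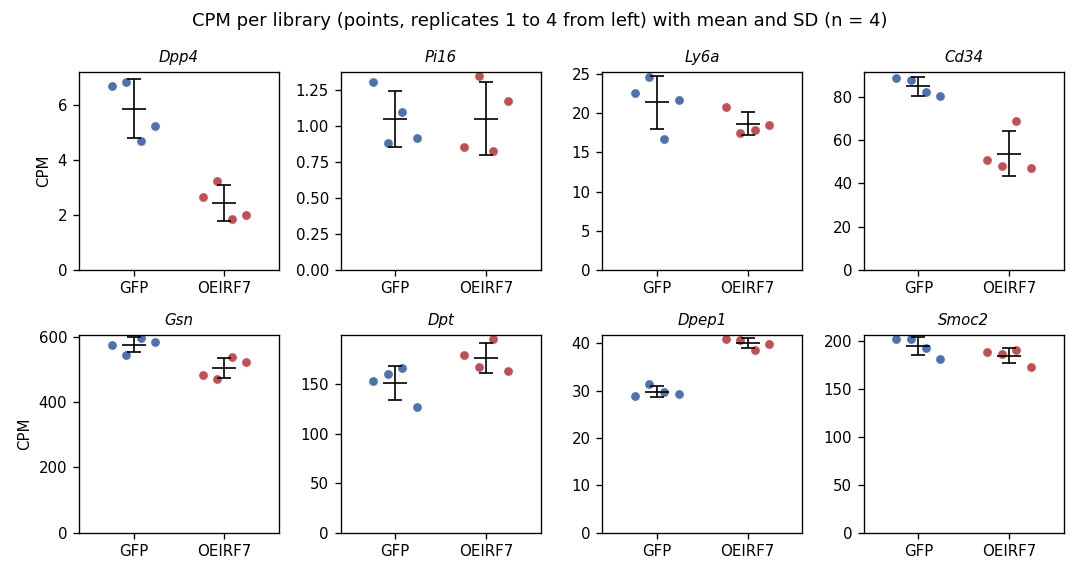
Level of the 8 tested markers in each library, in CPM on an axis from 0 (points from left to right, replicates 1 to 4; blue, GFP; red, labelled OEIRF7), with mean and SD of 4 libraries. Dpp4 and Cd34 are lower and Dpep1 is higher in all 4 libraries labelled OEIRF7, whereas the points of Pi16, Ly6a, Dpt and Smoc2 overlap.

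Among the secreted markers, Gsn was the most abundant. Gelsolin severs actin filaments and exists in a cytoplasmic and a plasma form, which the counts per gene do not separate. The gene spans chr2:35256380-35307892 on the plus strand. Its counts were 15429, 13558, 14752 and 15320 in the GFP libraries and 12492, 13665, 13680 and 12924 in those labelled OEIRF7. As CPM, 575 ± 23.2 stood against 504 ± 31.5 (SD, n = 4 each), with no overlap between the groups. Gsn fell by 0.19 on the log2 scale (SE 0.0435, 95% interval -0.28 to -0.10, edgeR adjusted p = 0.0016; exact permutation p = 0.029). It was a small difference, since 60.0% of all tested genes differed by at least as much.

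Dpt, or dermatopontin, binds decorin and helps collagen fibrils to form. It lies on chr1:164796644-164824266, plus strand. Its levels were 152.6, 159.8, 166.0 and 127.2 CPM in the GFP libraries and 179.6, 167.2, 195.9 and 163.0 CPM in the libraries labelled OEIRF7. The lowest library labelled OEIRF7 lay below the highest GFP library, so the groups overlapped. Dpt rose by 0.22 on the log2 scale (SE 0.0731, 95% interval 0.06 to 0.38, edgeR adjusted p = 0.018), and the exact permutation test gave p = 0.057. Without GFP replicate 4, the lowest of its group, the log2 fold change was 0.14 and the call was lost (edgeR adjusted p = 0.0501).

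Smoc2, a calcium-binding matricellular protein of the SPARC family, lies on chr17:14279506-14404790, plus strand. It measured 195 ± 9.72 CPM in the GFP libraries and 185 ± 7.95 CPM in those labelled OEIRF7 (SD, n = 4 each), and the groups overlapped. The log2 fold change was -0.08 (SE 0.0425, 95% interval -0.17 to 0.01, edgeR adjusted p = 0.13; exact permutation p = 0.20). Without GFP replicate 4 it was -0.11 with an edgeR adjusted p of 0.0349, and without replicate 4 labelled OEIRF7 it was -0.05 with an edgeR adjusted p of 0.352. With the replicate numbers as a block, it was -0.08 with an edgeR adjusted p of 0.0409.

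Pi16, a peptidase inhibitor of the CAP family that marks adventitial progenitors together with Dpp4, is encoded on chr17:29317680-29330593, plus strand. It was counted 35, 22, 27 and 24 times in the GFP libraries and 22, 39, 21 and 29 times in the libraries labelled OEIRF7. Both groups averaged 1.05 CPM. The log2 fold change was 0.00 (SE 0.249, edgeR adjusted p = 0.99; exact permutation p = 0.94). Its 95% interval ran from -0.53 to 0.54 and so includes differences of the size seen for Dpep1, in either direction.

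Within a library, the ratio of one marker to another does not depend on scaling. The exact two-sided permutation test was run on 5 such log2 ratios, and no p passed the threshold after adjustment over the 5. The smallest unadjusted p that the design allows, 0.029, was reached by Dpp4 to Pi16 and by Dpep1 to Smoc2. Each had an adjusted p of 0.071 in these permutation tests. At that smallest p, a ratio can pass the adjustment only if enough of the other ratios reach it too. The adjusted result was thus limited by the number of libraries and does not show that these ratios were alike in the groups. The log2 ratio of Dpp4 to Pi16 was 2.45 ± 0.356 in the GFP libraries and 1.19 ± 0.354 in those labelled OEIRF7 (SD, n = 4 each). That of Dpep1 to Smoc2 was -2.71 ± 0.0711 against -2.21 ± 0.0779. Ly6a to Cd34 differed by 0.49 (exact permutation p = 0.086, adjusted p = 0.14), Dpt to Clec3b by 0.63 (exact permutation p = 0.17, adjusted p = 0.21) and Gsn to Scara5 by 0.45 (exact permutation p = 0.57, adjusted p = 0.57). The ratios to Clec3b and Scara5 rest on very few reads of those genes. The difference for Dpt to Clec3b was 0.40 without replicate 4 labelled OEIRF7, and that for Gsn to Scara5 was 0.01 without GFP replicate 2, 0.01 without replicate 1 labelled OEIRF7 and 0.77 without replicate 4 labelled OEIRF7.

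The markers share some annotation, which may not be independent of their choice as surface and secreted markers. By the GO component terms in the table, 6 of the 10 belong to the extracellular region (6.72% of tested genes do) and 6 to the plasma membrane (21.4%). The external side of the plasma membrane holds 3 of them (Ly6a, Cd34 and Scara5), against 1.66% of tested genes. These counts are over all 10 members, whereas Scara5 and Clec3b are not among the tested genes behind the shares. The collagen-containing matrix holds 2 (Dpt and Smoc2), against 1.79% of tested genes. Of the 6 extracellular-region genes, Dpp4, Cd34 and Gsn fell, Dpt rose, and Pi16 and Smoc2 were not called. Over all tested genes, 29.0% were called higher and 29.9% lower. Dpep1, which rose, carries the term extracellular space. In GENCODE M21, 5 of the 10 genes (Dpp4, Pi16, Cd34, Dpt and Smoc2) overlap a gene on the opposite strand. Gsn and Dpep1 overlap a gene on the same strand. None of the overlapping genes has a row in the table, and the strand setting of the counting was not given in the sources used here, so reads from them could be included.

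A further list of 24 genes that adventitial fibroblasts express in other settings was read beside the 10 markers. It too was chosen with earlier results of these data known. Of these, 23 were tested, 11 rose, 8 fell and 4 were not called, where 29.0% of all tested genes were called higher and 29.9% lower. Their median log2 fold change was 0.19, against -0.13 for the 8 tested markers and 0.00 for all genes. Past a log2 fold change of 1 there were 5 rises and 3 falls, where 4.66% of all tested genes rose and 3.89% fell that far. Procr, the endothelial protein C receptor, rose from 31.6 ± 2.69 to 93.4 ± 3.94 CPM (log2 fold change 1.56, SE 0.0552). Tnxb, the matrix protein tenascin X, rose from 49.4 ± 5.0 to 145 ± 29.1 CPM (log2 fold change 1.55, SE 0.111), and Ackr3, a chemokine scavenger receptor, from 7.20 ± 0.649 to 19.9 ± 1.30 CPM (1.46, SE 0.0803). Wnt2 and Dact2, both at low levels and named after their values were seen, were the other rises (log2 fold changes 2.30 and 1.57). The falls were Limch1, an activator of non-muscle myosin, from 43.0 ± 3.28 to 14.7 ± 1.11 CPM (-1.55, SE 0.0693), Fndc1 from 573 ± 43.8 to 208 ± 8.43 CPM (-1.46, SE 0.0496), and the fibril-associated collagen gene Col14a1 from 37.3 ± 8.85 to 14.5 ± 2.36 CPM (-1.36, SE 0.147).

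**Figure D4:**
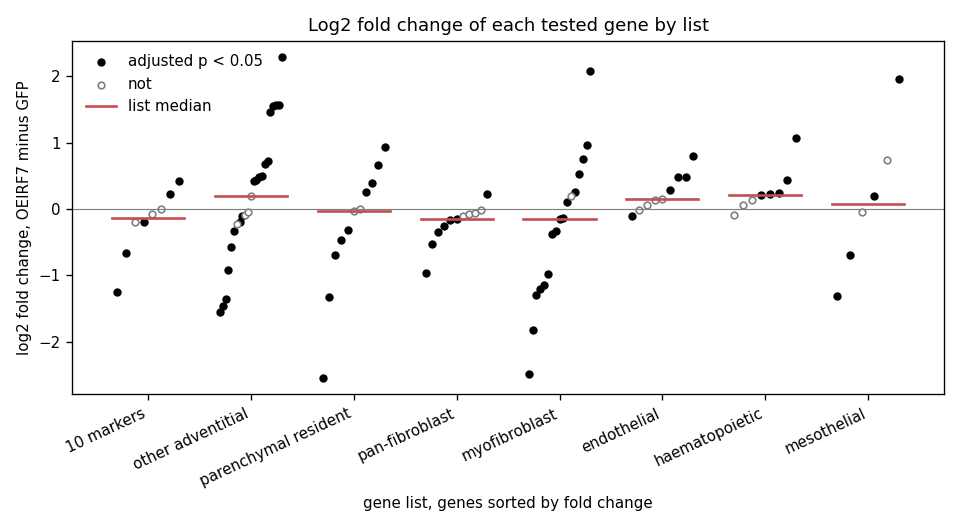
Log2 fold change (libraries labelled OEIRF7 minus GFP) of each tested gene in 8 lists, sorted within a list; filled points have an edgeR adjusted p under 0.05 and red bars are list medians. Rises and falls stand side by side among the 10 markers (median -0.13) and the other adventitial genes (median 0.19).

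The labelled cell type was read from marker lists. The summed level of 11 pan-fibroblast genes was 17910 to 18310 CPM in the GFP libraries and 15730 to 16810 CPM in those labelled OEIRF7, with Col1a1 the most abundant. Sums for 9 endothelial genes were 234.0 to 244.9 and 238.4 to 265.7 CPM, and for 9 haematopoietic genes 290.5 to 344.7 and 365.4 to 406.5 CPM. These lists bear on Cd34 and Ly6a, which such cells carry too. While Cd34 fell by 0.66, the endothelial list had 4 genes higher and 1 lower of 9. Over all tested genes, 29.0% were called higher and 29.9% lower. Its most abundant gene, Cdh5, went from 100 ± 0.903 to 92.9 ± 5.36 CPM (log2 fold change -0.11, edgeR adjusted p = 0.032), and Pecam1 was at 45.6 ± 2.46 and 45.2 ± 1.31 CPM (-0.01, edgeR adjusted p = 0.82). The 4 higher genes, named after their values were seen, were Kdr (log2 fold change 0.79, from 6.5 ± 0.783 to 11.3 ± 1.39 CPM), Vwf (0.49), Cldn5 (0.48) and Emcn (0.29). In the haematopoietic list 5 of 8 tested genes were higher and 0 lower, beside those same shares over all tested genes. Itgam had the largest rise, from 14.1 ± 0.705 to 29.7 ± 1.41 CPM (log2 fold change 1.07), and the others were Adgre1 (0.44), Tyrobp (0.24), Lyz2 (0.22) and Cd68 (0.21). Lyz2, its most abundant gene, went from 202 ± 15.9 to 235 ± 11.4 CPM, the leukocyte gene Ptprc lay at 5.27 ± 0.901 and 4.96 ± 0.757 CPM (log2 fold change -0.08, edgeR adjusted p = 0.64), and Cd3e had no read in any library. The part of these cells in the result for Cd34 was not tested. Sums for 6 mural genes were 68.87 to 75.97 and 79.0 to 98.78 CPM. Those for 7 mesothelial genes were 151.1 to 158.8 and 104.9 to 119.6 CPM. In each of these lists 2 genes were called higher and 2 lower. Mean levels of mural Cspg4 rose from 22.36 to 63.3 CPM, while Notch3 fell from 41.42 to 13.6 CPM. Mesothelial Krt19 rose from 4.75 to 18.49 CPM, while Upk3b fell from 51.79 to 20.76 and Lrrn4 from 77.67 to 47.97 CPM. The others called were Rgs5 and Msln (higher) and Myh11 (lower). These genes were named after their values were seen. Sums for 8 cardiomyocyte genes were 9.954 to 13.66 and 7.501 to 9.73 CPM, nearly all from Tnnt2.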

How the data were processed

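Reads were trimmed by the authors and mapped with HISAT2 to GRCm38. The authors deposited raw counts per gene from HTSeq-count, not normalized. The deposited FPKM came from Cufflinks, scaled by gene length and depth and rounded to 2 decimals. Versions of these tools and the strand setting were not given in the sources used here, and the labels and the paper name different library kits and viruses. The table's group means, fold changes, p-values and FDR belong to the authors' own comparison and were not used. In 121 symbols the letters "nc" had been replaced by "GFP" and were restored by identifier.

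The counts were tested with edgeR 4.0.16 in R 4.3.3 (filterByExpr, TMM, glmQLFit, glmQLFTest) and Benjamini-Hochberg adjustment over 13533 genes, without covariates. CPM are counts scaled to the TMM-adjusted library size, with TMM factors from 0.9887 to 1.014. Titles number the replicates but do not say whether they came from separate cultures, so p-values measure the spread between these samples, which may be technical. Exact two-sided permutation tests compared single markers, on log2 CPM with a prior count of 2, and 5 log2 ratios (0.5 counts added). The edgeR standard errors were derived from each log2 fold change and its F statistic, and the 95% intervals from these with a t distribution. Intervals cover the fit only, and the limit for a count of 0 is 3 counts. Alternatives were DESeq2 1.42.0, library size only, upper-quartile scaling, filters of at least 1 count over all libraries or 10 in every library, the replicate block, limma 3.58.1 on log2(FPKM + 1) and log2(FPKM + 0.1) for means above 0.1 FPKM, log2(FPKM + 1) without that filter, and leaving out each library in turn. The fits were tested on simulated data, with changes of 1 on the log2 scale and the same spread for every gene. Smaller differences, such as those of most markers, were not tested in this way.

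Named were the members, Irf7, relatives called past a log2 fold change of 1, up to 3 rises and 3 falls per fibroblast list past that line with a mean of at least 5 CPM, and the most abundant gene and those at 0 of lists of other cell types. Other genes were named after their values were seen. The members and lists were chosen with earlier results of these data known. Annotation came from GENCODE M21 and RefSeq GRCm38.p6.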

Additional observations from a re-analysis of the deposited data

Results flagged for a closer look

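The Cd34 level of replicate 3 labelled OEIRF7, 68.98 CPM, stood far from the other 3 libraries of its group, with a gap to the nearest of 0.836 of the group's range. This was the only such library among 16 groups tested, 2 for each of the 8 tested markers, and chance marks about 1 in 20 groups. The library still lay below all GFP libraries. Its cause was not tested.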

How the results depend on the processing

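The counts of markers called were recomputed under 17 alternatives. The count of markers higher was 2 and fell to 1 with limma on log2(FPKM + 1) without a filter and without GFP replicate 4, since Dpt then had adjusted p-values of 0.0503 and 0.0501. Leaving out each library gave 1 to 2 markers higher and 3 to 4 lower. Of the 24 other adventitial genes, these fits gave 11 higher in each and 6 to 8 lower. Pi16 took either sign across alternatives, from -0.15 to 0.13 on the log2 scale, and was never called; its sign did not flip between scalings of the counts. Dpp4, Cd34, Gsn and Dpep1 kept their direction and call under all 17 alternatives. To look for pairing, each library's deviations from its group mean in log2 CPM were correlated over the tested genes between the groups. Same-numbered libraries gave 0.079, 0.095, 0.138 and 0.104, which are not correlations of the levels themselves. For each replicate number, the best match was the library of the same number, as a hint from the data. Whether the replicate numbers pair the samples was not tested. With the replicate block the markers higher were 2 and lower 4, because Smoc2 (-0.08) reached an adjusted p of 0.0409 by edgeR, and the other adventitial genes were 11 higher and 7 lower. Depth limits Scara5 and Clec3b, for which no difference was detectable, and Pi16, with 21 to 39 reads per library.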

Other observations

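Genes related to the 10 markers by family were read as a separate list of 38, of which 27 were tested, 9 rose, 12 fell and 6 were not called, with a median log2 fold change of -0.06. Over all tested genes, 29.0% were called higher and 29.9% lower. Past a log2 fold change of 1 there were 2 rises and 0 falls, where 4.66% of all tested genes rose and 3.89% fell that far. Scin, the actin-severing relative of Gsn, rose from 0.555 ± 0.0233 to 7.81 ± 0.452 CPM (SD, n = 4 each; log2 fold change 3.80, SE 0.142), while Gsn fell by 0.19. Capg, an actin-capping relative, rose by 0.60 on the log2 scale (SE 0.0374). Msr1, a macrophage scavenger receptor related to Scara5, rose from 12.0 ± 1.22 to 26.7 ± 2.23 CPM (1.15, SE 0.0817), and Scara3 fell by 0.69 (SE 0.0865). Fap, the nearest relative of Dpp4 and a marker of activated fibroblasts, lay at 1.97 ± 0.219 and 2.26 ± 0.243 CPM and was not called (log2 fold change 0.20, edgeR adjusted p = 0.32). Smoc1, the paralog of Smoc2, fell by 0.53 (SE 0.113). Capg, Scara3, Fap and Smoc1 were named after their values were seen.

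Of 13 genes of parenchymal resident fibroblasts, 11 were tested, 4 rose, 5 fell and 2 were not called, with a median log2 fold change of -0.02. For all lists in this paragraph, the shares over all tested genes were 29.0% called higher and 29.9% lower. The transporter gene Abca8a fell from 12.8 ± 2.04 to 2.19 ± 0.460 CPM (log2 fold change -2.55, SE 0.150) and Tcf21, a transcription factor of resident cardiac fibroblasts, from 58.3 ± 6.13 to 23.1 ± 3.49 CPM (-1.33, SE 0.0950). The 4 rises among the parenchymal genes were Cxcl14 (log2 fold change 0.93), Mgst1 (0.66), Cygb (0.39) and Pdgfra (0.25), named after their values were seen. Hsd11b1 and Lpl were not called. Of 17 myofibroblast genes, 6 rose, 10 fell and 1 was not called, with a median of -0.16. Acta2, smooth muscle actin, fell from 2061 ± 74.3 to 581 ± 46.1 CPM (-1.83), Myl9, a myosin light chain, from 137 ± 10.6 to 24.4 ± 2.91 CPM (-2.49) and Cthrc1 from 69.0 ± 8.42 to 31.2 ± 1.39 CPM (-1.15). Cilp, a matrix protein, rose from 2.53 ± 0.497 to 10.7 ± 1.82 CPM (2.08). Of 11 pan-fibroblast genes, 1 rose (Vim), 6 fell and 4 were not called, with a median of -0.16.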
